A study of Mus musculus with 24 samples.

Results

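The 8 genes described are H3f3b (H3.3), H2az1 and H2az2 (H2A.Z), Macroh2a1 (macroH2A1), Cenpa (CENP-A), and the core histone genes H3c7 (H3), H2ac15 (H2A) and H2bc21 (H2B). They were chosen by gene name, and probes were matched through Entrez identifiers, giving 8 of the 19057 genes named on the bead array. Those genes have 15 probes, of which 11 were above background on enough arrays to be tested (10 of them on all 12 direct arrays) and 4 were not (1 of the 2 Cenpa probes and 3 of the 4 H3c7 probes).

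Histones come in classes that differ in when they are made. Replication-dependent core histone genes (the H2ac, H2bc, H3c and H4c families) are transcribed mainly while DNA is copied, and most of their mRNAs end in a stem-loop without a poly(A) tail, which array amplification usually primes from. Replication-independent genes carry introns, give polyadenylated mRNAs and supply variants throughout the life of a cell: H3.3, H2A.Z, macroH2A and the centromeric CENP-A. In the mammalian testis, meiosis in spermatocytes is followed by haploid round spermatids, in which histones are acetylated, exchanged for testis variants and later replaced by transition proteins and protamines.

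The series compared adult male mice of mixed B6/129sv background that are either Nutm1 knockout (KO) or wild type (WT). Nutm1 encodes NUT, a testis protein that binds the acetyltransferase p300, and the series title names genome-wide H4 hyperacetylation as its subject. Cells were enriched from whole testes by sedimentation through a BSA gradient, giving 4 groups: KO round spermatids, WT round spermatids, KO spermatocytes and WT spermatocytes. The submitters call the mice KO in the sample labels and knock down in the design text, and the altered part of the gene is not given in the sources used here. Each group has 3 directly prepared replicates, one from each of 3 fractionations, and a fractionation pooled 3 KO mice or 2 WT mice. A further 3 arrays a group hold mixtures of those same RNAs, are not independent, and entered only the normalization. Fractions are enriched rather than pure, so fewer cells of a type and less RNA per cell cannot be told apart in any value below.

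Values are log2 signals after background correction and quantile normalization. A difference passed when its Benjamini-Hochberg adjusted p, over all 17401 tested probes in the limma fit, was under 0.05. Errors of differences are standard errors of that fit (SE), and the number of arrays limits their precision.

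The direct arrays detected between 13849 and 16244 probes each. For Nutm1 itself the mean was 6.86 ± 0.15 in KO round spermatids, against 8.37 ± 0.17 in WT ones (SD, n = 3 each; difference -1.50, SE 0.25, adjusted p = 0.00148 in limma). In spermatocytes its probe averaged 5.63 ± 0.10 in KO and 6.27 ± 0.57 in WT (adjusted p = 0.571), and whether the probe lies in the altered part is not given. The 12 tested round spermatid markers had a mean log2 signal of 12.63 to 12.95 in KO and 12.92 to 13.06 in WT round spermatids, against 11.45 to 11.54 in KO and 11.30 to 12.37 in WT spermatocytes. WT spermatocyte replicate 3 was the array at 12.37. The 11 tested spermatocyte markers ran at 10.30 to 10.54 and 10.13 to 10.34 in KO and WT round spermatids, against 10.56 to 11.12 and 10.91 to 11.08 in KO and WT spermatocytes, although the Sycp3 probe read was not detected on any direct array. Markers of other cells were present too. The 6 tested of 8 Leydig markers on the array averaged 7.63 to 12.26 in KO spermatocytes, highest in replicate 1, and 9.78 to 10.87 in WT spermatocytes, against 5.97 to 7.86 in KO and 5.69 to 7.25 in WT round spermatids. They fell with stage for 4 of 6 genes in KO (median -3.03) and 6 of 6 in WT (median -3.90), where 24.8% and 32.5% of all probes were lower. This is the direction of H3f3b, H2az1 and Macroh2a1 below, and the part of the Leydig markers in those differences was not tested. The 12 tested of 14 macrophage markers averaged 6.83 to 8.22 in KO and 6.35 to 7.18 in WT round spermatids, against 5.02 to 6.02 in KO and 5.09 to 5.76 in WT spermatocytes, where 5 and 6 of them were not detected on any array. Macrophage markers rose with stage for 11 of 12 genes in KO and 8 of 12 in WT. The 3 tested erythroid markers rose in both genotypes. Sertoli markers rose for 6 of 9 genes in KO and 5 of 9 in WT, with 1 lower in WT. These rises, beside 25.4% of all probes in KO and 27.6% in WT, have the direction of H3c7 below. Their part in its difference was not tested. The mixed arrays stood apart from the direct ones. All 3 mixed arrays lay outside the range of the 3 direct arrays for 12.4% of probes among KO round spermatids, 10.4% for WT round spermatids, 41.2% for KO spermatocytes and 13.6% for WT spermatocytes, and for 1, 0, 6 and 2 of the 11 histone probes in those groups. Their part in the results was not tested beyond the fits given with and without them.

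Promoter windows from RefSeq (GRCm38.p6) were found for 6 of the 8 genes. The start meant here is the one each window was taken from. For H3f3b and Cenpa it lies inside the span listed for the gene, whose upstream end is chr11:116026039 for H3f3b and chr5:30666877 for Cenpa. The 250 bases before the start are shown for 3 replication-independent genes and the 150 bases nearest the start for H2ac15, because H3f3b and H2az1 fell with stage in both genotypes while Cenpa and H2ac15 passed in KO and not in WT. Capitals mark 3 motifs on either strand, chosen after the windows were read: the CCAAT box (which reads ATTGG from the other strand), the TATAAA box (TTTATA from the other strand) and TGACG, the core of a cAMP response element (CGTCA from the other strand). None of these matches overlaps another.
H3f3b (GRCm38.p6 chr11:116024505-116024754, minus strand): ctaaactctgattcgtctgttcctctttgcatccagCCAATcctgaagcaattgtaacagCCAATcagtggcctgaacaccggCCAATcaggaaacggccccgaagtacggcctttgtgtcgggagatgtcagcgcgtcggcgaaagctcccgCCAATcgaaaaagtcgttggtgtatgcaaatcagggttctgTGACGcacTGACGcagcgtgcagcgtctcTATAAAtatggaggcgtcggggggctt
H2az1 (GRCm38.p6 chr3:137864237-137864486, plus strand): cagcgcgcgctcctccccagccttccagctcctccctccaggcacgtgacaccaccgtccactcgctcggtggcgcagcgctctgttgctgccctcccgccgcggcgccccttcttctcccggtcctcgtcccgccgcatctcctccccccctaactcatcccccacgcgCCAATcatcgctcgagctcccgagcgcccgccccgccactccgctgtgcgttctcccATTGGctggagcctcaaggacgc
Cenpa (GRCm38.p6 chr5:30666636-30666885, plus strand): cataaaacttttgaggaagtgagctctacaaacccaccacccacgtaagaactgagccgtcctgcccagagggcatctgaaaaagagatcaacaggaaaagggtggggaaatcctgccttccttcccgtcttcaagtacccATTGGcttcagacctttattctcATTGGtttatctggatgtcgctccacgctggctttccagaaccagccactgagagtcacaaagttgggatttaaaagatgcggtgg
H2ac15 (GRCm38.p6 chr13:21753913-21754062, minus strand): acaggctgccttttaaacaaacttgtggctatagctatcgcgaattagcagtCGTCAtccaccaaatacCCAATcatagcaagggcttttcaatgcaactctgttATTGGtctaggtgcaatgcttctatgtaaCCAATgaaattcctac
The H3f3b window holds CCAAT 4 times, TGACG 2 times and TATAAA 1 time, the last beginning 27 bases before the start. Of 32851 windows of 250 bases, 33.8% hold CCAAT at least 1 time and 0.84% at least 4 times, 17.8% hold TGACG and 12.4% hold TATAAA. H2az2 also has 4 CCAAT matches, H2ac15 has 3, H2az1 and Cenpa have 2 each, and Macroh2a1 has none of the letters searched. H2ac15 has 1 TGACG match as well. These matches describe the letters of the window and no binding was measured.

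More of these probes passed between stages than between genotypes. Macroh2a1 probe 3 entered the test only through spermatocytes and is left out of these counts. In KO, 9 of the other 10 probes differed between round spermatids and spermatocytes, 4 higher and 5 lower, where 50.3% of all tested probes passed in that comparison (25.4% higher, 24.8% lower). In WT, 7 of 10 passed, 2 higher and 5 lower, where 60.1% of all probes did (27.6% higher, 32.5% lower). Most probes on the array moved with stage, so these counts show nothing particular to histones. The 3 arrays of the stages did not overlap for 9 of 10 probes in KO (57.7% of all probes; 29.2% higher, 28.5% lower) and for 7 of 10 in WT (67.5% of all; 30.1% higher, 37.4% lower). Counted as genes by their brightest probe, and without H2bc21, whose probes disagree, 3 of 7 rose and 3 fell in KO round spermatids, and 1 rose and 3 fell in WT round spermatids. The median difference of these 7 genes was 0.14 in KO and -0.35 in WT, beside -0.02 and -0.14 for all tested probes. With cyclic loess in place of quantile scaling, the WT median of all probes moved to 0.07 and the split of WT calls turned to 5724 higher and 4397 lower, from 4806 higher and 5654 lower, but every call of the 10 probes in either genotype was kept.

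**Figure D1:**
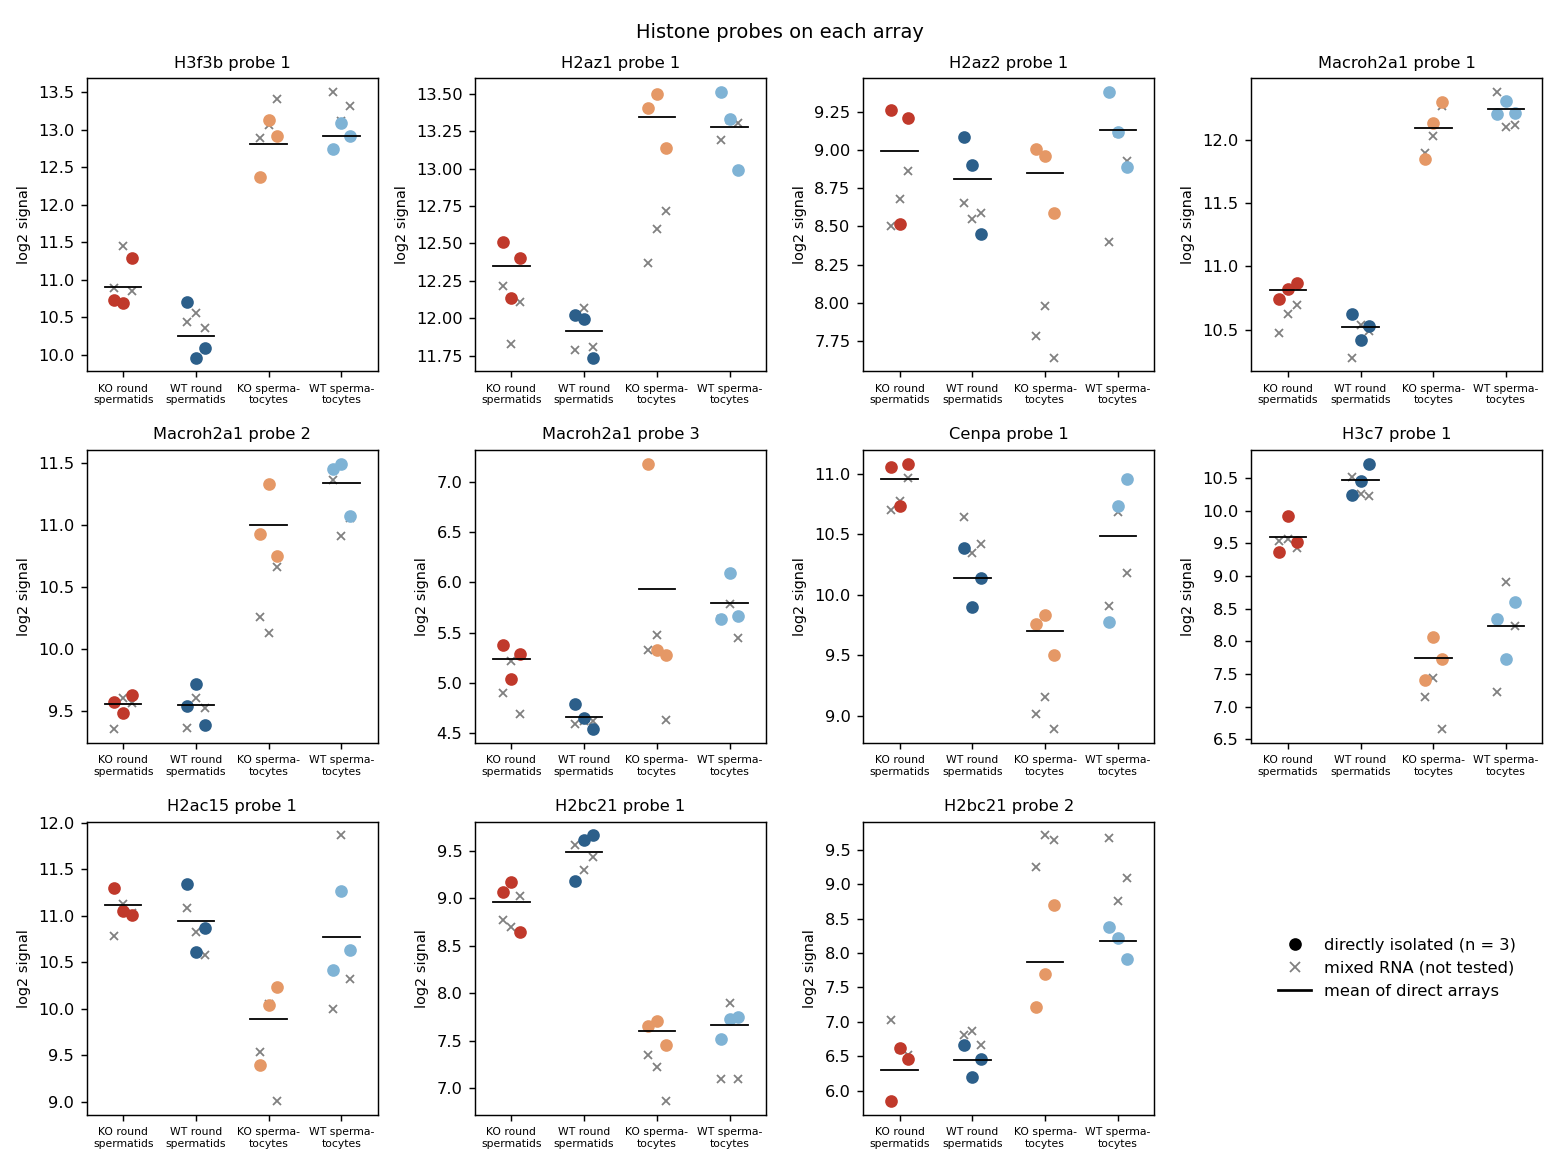
Log2 signal (vertical axes, each with its own range) of the 11 tested histone probes on every array, by group. Coloured points are the 3 direct arrays of a group, bars their mean and grey crosses the mixed arrays, which were not tested; H3f3b lies near 10 to 11 in round spermatids and near 13 in spermatocytes, while H3c7 lies near 10 and near 8.

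The replication-independent genes H3f3b, H2az1 and Macroh2a1 fell in round spermatids of both genotypes. H3f3b, one of a pair of genes for the variant H3.3 that is deposited outside replication, measured 10.74, 10.69 and 11.29 in KO round spermatids and 12.38, 13.12 and 12.91 in KO spermatocytes. In WT it measured 10.71, 9.96 and 10.09 in round spermatids and 12.74, 13.08 and 12.92 in spermatocytes. No round spermatid array came within 1 log2 unit of any spermatocyte array. The difference was -1.90 in KO (SE 0.26, adjusted p = 1.38e-04 in limma) and -2.66 in WT (SE 0.26, adjusted p = 7.7e-06), or 3.73-fold and 6.32-fold lower in round spermatids. Among the 8 genes this was the largest fall in either genotype. H3f3a, which encodes the same H3.3 protein and was picked out after its values were seen, passed in neither genotype. Its stage difference was 0.19 in KO (SE 0.21, adjusted p = 0.473) and -0.04 in WT (SE 0.21, adjusted p = 0.892), and under the other scalings it ran from 0.18 to 0.31 in KO and from -0.04 to 0.35 in WT.

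H2az1 encodes H2A.Z.1, a variant placed around transcription starts. It measured 12.51, 12.14 and 12.40 in KO round spermatids against 13.41, 13.50 and 13.14 in KO spermatocytes. The WT arrays read 12.02, 11.99 and 11.74 in round spermatids against 13.51, 13.33 and 12.99 in spermatocytes. Stages did not overlap in either genotype, and the fall was 2.00-fold in KO (95% interval of the log2 difference -1.41 to -0.59, SE 0.19, adjusted p = 0.00112) and 2.57-fold in WT (-1.36, SE 0.19, adjusted p = 7.76e-05). Its paralogue H2az2, which encodes H2A.Z.2, measured 9.27, 8.51 and 9.21 in KO round spermatids, 9.09, 8.90 and 8.45 in the WT ones, 9.01, 8.96 and 8.59 in KO spermatocytes and 9.38, 9.12 and 8.89 in WT spermatocytes. All 4 groups overlapped, and no comparison passed: the stage difference was 0.14 in KO (95% interval -0.39 to 0.68, adjusted p = 0.655) and -0.32 in WT (95% interval -0.86 to 0.22, adjusted p = 0.28).

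Macroh2a1 encodes macroH2A1, an H2A with a large non-histone domain that is found on silenced chromatin and on the sex chromosomes of meiotic cells. Its brightest probe read 10.74, 10.82 and 10.87 in KO round spermatids against 11.85, 12.14 and 12.30 in KO spermatocytes. In WT it read 10.62, 10.41 and 10.52 in round spermatids against 12.21, 12.31 and 12.22 in spermatocytes. The replicates were tight and the stages lay far apart, 2.44-fold in KO (-1.29, SE 0.16, adjusted p = 8.61e-05) and 3.31-fold in WT (-1.73, SE 0.16, adjusted p = 5.91e-06). A second probe gave nearly the same differences, -1.44 in KO (SE 0.19, adjusted p = 1.28e-04) and -1.80 in WT (SE 0.19, adjusted p = 1.37e-05). Probe 3 was dim, detected on 4 of the 12 direct arrays, all of them spermatocytes, so its stage difference is no test and only its values are given. They ran from 5.03 to 5.38 in KO round spermatids and from 4.53 to 4.79 in WT ones, none of them detected, against 5.27 to 7.19 in KO and 5.64 to 6.09 in WT spermatocytes. KO spermatocyte replicate 1, the array highest in Leydig markers, read the 7.19.

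**Figure D2:**
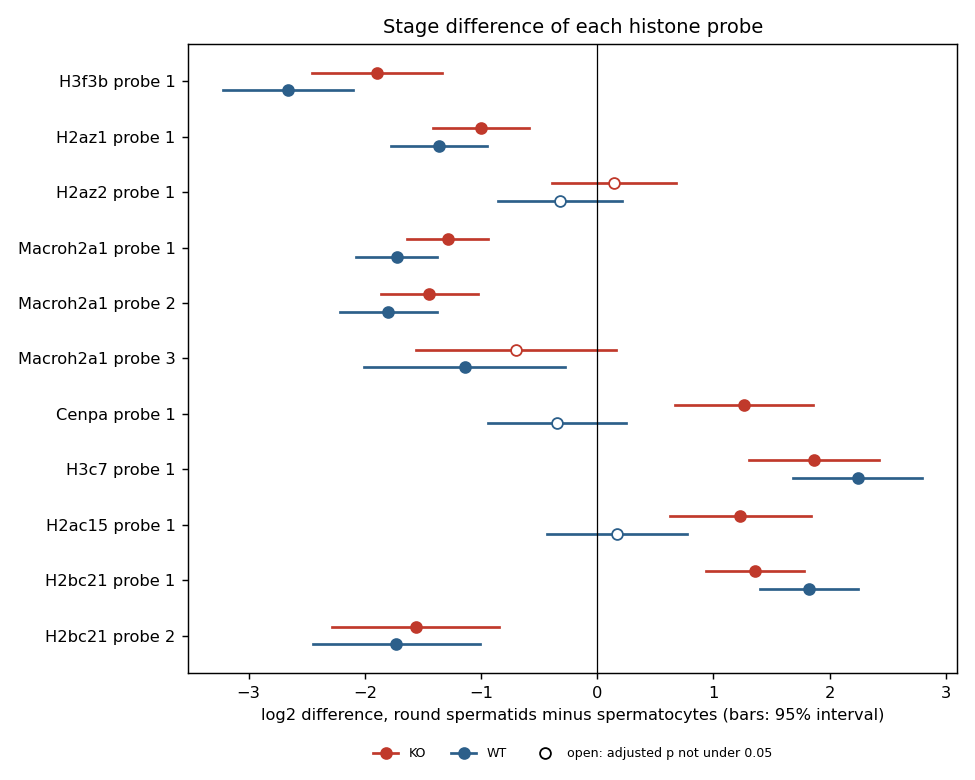
Log2 difference between round spermatids and spermatocytes (horizontal axis) of each tested histone probe, in KO (red) and WT (blue), with the 95% interval of the limma fit as bars; filled points passed (Macroh2a1 probe 3, filled in WT, was not detected in round spermatids). Cenpa and H2ac15 are filled only in KO, at 1.26 and 1.23, and the 2 H2bc21 probes lie on opposite sides of 0.

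Among the core histone genes, H3c7 rose in round spermatids of both genotypes. H3c7, a replication-dependent H3 gene of the large histone cluster, measured 9.37, 9.91 and 9.53 in KO round spermatids against 7.41, 8.06 and 7.73 in KO spermatocytes. In WT it measured 10.24, 10.45 and 10.72 in round spermatids against 8.35, 7.73 and 8.60 in spermatocytes. Each round spermatid array exceeded each spermatocyte array, and the 2 highest WT spermatocyte values came from replicates 1 and 3. The rise was 3.65-fold in KO (1.87, SE 0.26, adjusted p = 1.50e-04) and 4.73-fold in WT (2.24, SE 0.26, adjusted p = 2.09e-05). The other 3 probes assigned to H3c7 were never detected on the direct arrays. Core histone genes of a family are close to identical in sequence, the probe sequences were not used here, and so a signal named for 1 such gene may come from several. Most of these mRNAs also lack a poly(A) tail. Whether a signal follows all mRNA of such a gene or only a polyadenylated part was not tested. Both limits hold for H2bc21 and H2ac15 below as well.

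H2bc21, an H2B gene outside the large histone cluster, gave opposite answers from its 2 probes. Probe 1 read 9.07, 9.17 and 8.65 in KO round spermatids and 9.18, 9.61 and 9.66 in WT ones, against 7.66, 7.71 and 7.45 in KO and 7.52, 7.72 and 7.75 in WT spermatocytes. This probe rose 2.56-fold in KO (1.36, SE 0.19, adjusted p = 1.95e-04) and 3.53-fold in WT (1.82, SE 0.19, adjusted p = 1.32e-05). Probe 2 read 5.85, 6.62 and 6.45 in KO round spermatids and 6.66, 6.20 and 6.46 in WT ones, against 7.22, 7.69 and 8.70 in KO and 8.38, 8.22 and 7.91 in WT spermatocytes. It fell 2.95-fold in KO (-1.56, SE 0.33, adjusted p = 0.00211) and 3.32-fold in WT (-1.73, SE 0.33, adjusted p = 6.86e-04). Over the 12 arrays the probes correlated at -0.88, over arrays that differ in stage. Which transcript either probe reads was not tested, and no direction is given for H2bc21 as a gene.

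H2ac15, an H2A gene of the large cluster, passed with stage in KO and not in WT. It measured 11.30, 11.05 and 11.01 in KO round spermatids against 9.39, 10.04 and 10.24 in KO spermatocytes. The WT arrays read 11.35, 10.61 and 10.87 in round spermatids against 10.41, 11.27 and 10.64 in spermatocytes, which overlap. The stage difference was 1.23 in KO (SE 0.28, adjusted p = 0.00316) and 0.17 in WT (95% interval -0.44 to 0.78, adjusted p = 0.62). The difference between these differences, 1.06 (SE 0.39), did not pass (adjusted p = 0.241, unadjusted p = 0.0192), so the genotypes are not shown to differ. It passed with array weights (1.28, adjusted p = 0.0414) and with all 6 arrays, which counts mixtures as samples, and under no other alternative.

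Cenpa encodes the H3 variant that marks centromeres and is inherited through meiosis. Its detected probe measured 11.06, 10.73 and 11.09 in KO round spermatids against 9.76, 9.83 and 9.51 in KO spermatocytes. WT arrays read 10.39, 9.90 and 10.14 in round spermatids against 9.77, 10.74 and 10.96 in spermatocytes. WT spermatocyte replicate 1, at 9.77, stood with the KO spermatocytes and below the other WT ones. The rise was 2.39-fold in KO round spermatids (1.26, SE 0.27, adjusted p = 0.00244), while WT gave -0.35 (95% interval -0.94 to 0.25, adjusted p = 0.288). Without WT spermatocyte replicate 1 the WT difference was -0.71 and passed as a fall (adjusted p = 0.0149). For the difference between genotypes in the stage effect, 1.61 (SE 0.39), the adjusted p was 0.0639, the smallest of the 11 probes. It passed when fractionation was a random block (adjusted p just under the threshold of 0.05) and without WT spermatocyte replicate 1 (1.97, adjusted p = 0.0086). Array weights (1.69, adjusted p = 0.0104) also brought it under the threshold. So did the submitters' processed values (1.48, adjusted p = 0.0442), no background correction (1.49, adjusted p = 0.0446) and all 6 arrays, which counts mixtures as samples. It did not pass under any of the remaining alternatives, cyclic loess among them.

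Few probes passed between genotypes. In round spermatids 1 of the 11 probes passed, H3c7, which was lower in KO, where 13.5% of all tested probes passed (6.19% higher, 7.32% lower). In spermatocytes none of the 11 passed in limma (2 had an unadjusted p under 0.05), where 0.805% of all probes did (0.184% higher, 0.621% lower). No probe passed for the difference between stages in the genotype effect (2 had an unadjusted p under 0.05), against 1.52% of all (0.172% higher, 1.34% lower). The 3 KO and 3 WT arrays did not overlap for 5 of the 10 probes detected there, 3 higher and 2 lower in KO round spermatids, where 41.5% of all probes did not (25.1% higher, 16.3% lower). In spermatocytes this held for 1 of 10, lower in KO, and for 8.99% of all probes (4.07% higher, 4.93% lower). These genotype comparisons use the same arrays as the stage comparisons. Cyclic loess moved the median KO minus WT difference of all probes in round spermatids to -0.02, from 0.12, and the split of calls to 484 higher and 1572 lower, from 1077 higher and 1273 lower. Differences in round spermatids are therefore also given below relative to the median of 0.12.

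In round spermatids H3c7 averaged 9.60 ± 0.28 in KO and 10.47 ± 0.24 in WT (SD, n = 3 each), with no overlap. The difference was -0.87 (SE 0.26, adjusted p = 0.043 in limma), 1.82-fold lower in KO, or -0.98 relative to the median of all probes. The call is close to the threshold and was lost under 8 of 24 alternatives, all of which kept the sign (-1.14 to -0.74; adjusted p 0.00486 to 0.148). It was lost without KO round spermatid replicate 1 (adjusted p = 0.143) or 3 (0.127), without WT round spermatid replicate 2 (0.107) or 3 (0.148), and narrowly without KO spermatocyte replicate 3 (0.0522) or WT spermatocyte replicate 1 (0.0523). It was also lost with no detection filter (0.0774) and with the replicate number as a block (0.0521), although KO and WT arrays of a number share no animals or fractionation. In spermatocytes H3c7 averaged 7.74 ± 0.33 in KO and 8.23 ± 0.45 in WT, overlapping (-0.49, SE 0.26, adjusted p = 0.822), and the 2 genotype differences were not shown to differ (-0.38, SE 0.36, adjusted p = 0.703).

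The other core histone probes did not pass in round spermatids. H2bc21 probe 1 averaged 8.96 ± 0.28 in KO and 9.48 ± 0.26 in WT (-0.52, SE 0.19, adjusted p = 0.0933), and the arrays did not overlap. Under cyclic loess it did pass (-0.72, adjusted p = 0.0464), as it did without WT round spermatid replicate 1 (adjusted p = 0.0461) and with array weights (0.0334). All 6 arrays, which counts mixtures as samples, gave a call too. H2bc21 probe 2 averaged 6.31 ± 0.41 in KO and 6.44 ± 0.23 in WT round spermatids, which overlapped. In spermatocytes probe 2 averaged 7.87 ± 0.76 in KO and 8.17 ± 0.23 in WT, overlapping as well. H2ac15 averaged 11.12 ± 0.15 in KO and 10.94 ± 0.37 in WT round spermatids (0.18, 95% interval -0.43 to 0.78, adjusted p = 0.709). In spermatocytes H2ac15 averaged 9.89 ± 0.44 in KO and 10.77 ± 0.44 in WT, and it was the only member whose arrays did not overlap there (-0.88, SE 0.28, adjusted p = 0.347).

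None of the replication-independent probes passed in round spermatids, where all had a positive KO minus WT difference, which is not so for all of them relative to the median of all probes. Cenpa averaged 10.96 ± 0.20 in KO and 10.14 ± 0.24 in WT round spermatids (0.82, SE 0.27, adjusted p = 0.0659; 0.70 relative to the median of all probes), with no overlap. In spermatocytes the sign was opposite, 9.70 ± 0.17 in KO and 10.49 ± 0.63 in WT (-0.79, SE 0.27, adjusted p = 0.465). Leaving out WT spermatocyte replicate 1, which had the value of the KO arrays, gave adjusted p = 0.0307 in spermatocytes and 0.0162 in round spermatids, and leaving out WT spermatocyte replicate 3 gave 0.046 in round spermatids. With only the round spermatid groups fitted, the adjusted p was 0.0208, and with array weights it was 0.0234 in round spermatids. All 6 arrays, which counts mixtures as samples, gave a call at each stage. Cenpa did not pass between genotypes under the remaining alternatives.

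For H3f3b, KO round spermatids averaged 10.91 ± 0.33 against 10.25 ± 0.40 for WT, which differ by 0.65 (SE 0.26, adjusted p = 0.11), or 0.53 relative to the median. One WT array, replicate 1 at 10.71, lay among the KO values, and without it the adjusted p was 0.0441. With array weights the adjusted p in limma was 0.0355, and all 6 arrays, which counts mixtures as samples, also gave a call. H3f3b did not pass in round spermatids under the remaining alternatives. In spermatocytes H3f3b differed by -0.11 (95% interval -0.67 to 0.45, adjusted p = 0.987). H2az1 averaged 12.35 ± 0.19 in KO and 11.92 ± 0.16 in WT round spermatids and did not overlap (0.43, SE 0.19, adjusted p = 0.147), and in spermatocytes the difference was 0.07 (95% interval -0.35 to 0.48). The brightest Macroh2a1 probe differed by 0.29 in round spermatids (SE 0.16, adjusted p = 0.244) and the second by 0.01 (SE 0.19, adjusted p = 0.971). H2az2 gave 0.19 (SE 0.25, adjusted p = 0.653).

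**Figure D3:**
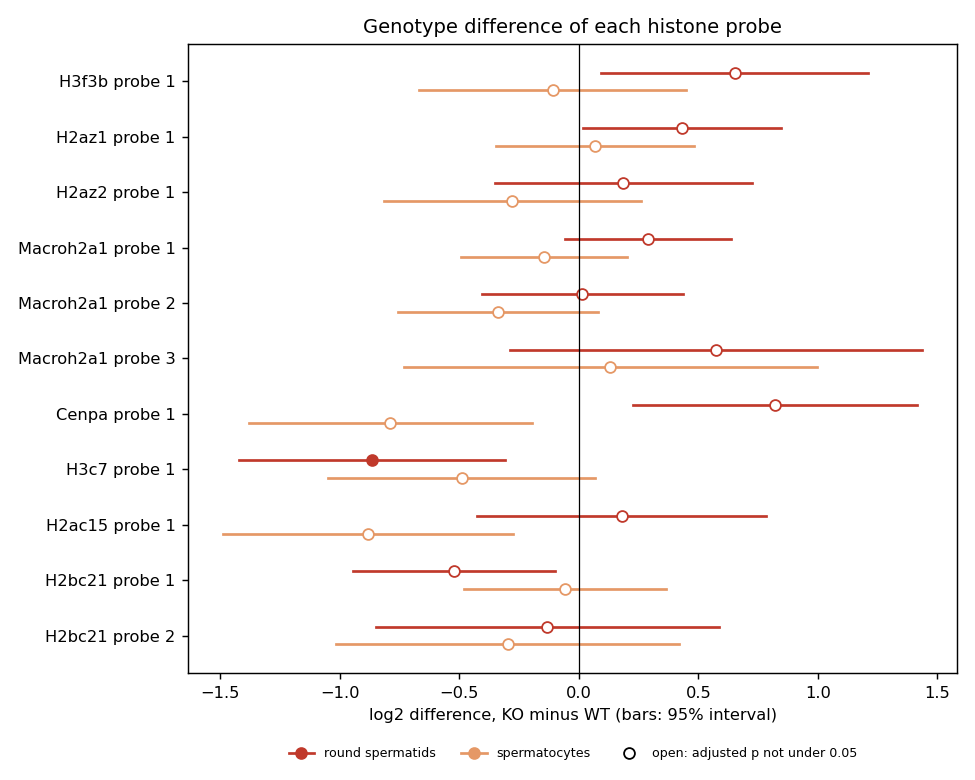
Log2 difference between KO and WT (horizontal axis) of each tested histone probe, in round spermatids (red) and spermatocytes (orange), with the 95% interval of the limma fit as bars; filled points passed. H3c7 in round spermatids, at -0.87, is the only filled point, and Cenpa lies at 0.82 in round spermatids and -0.79 in spermatocytes.

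Across the 12 direct arrays correlations between the probes were computed over samples that include both stages. H3f3b correlated with the brightest Macroh2a1 probe at 0.99 and with H2bc21 probe 1 at -0.98, H3c7 with H2bc21 probe 1 at 0.95, and Cenpa with H2ac15 at 0.72. The most similar named genes were Tex19.2 and Rbx1 for H3f3b (Pearson's r = 0.995 and 0.993) and Sdhc and Tufm for H2az1 (0.986 each). They were Zfp212 and Dda1 for Macroh2a1 (0.997 and 0.996), Ccnd1 and Dmrtc1c1 for Cenpa (0.968 and 0.940), and H3c1 and H3c4 for H3c7 (0.998 and 0.997). For H2ac15 they were H2ac7 and H2ac12 (0.982 and 0.981), and for H2bc21 probe 1 Zdbf2 and Ube2k (0.983 and 0.981). These are descriptions over arrays that share groups, fractionations and normalization. The closest neighbours of H3c7 and H2ac15 were themselves genes of the same family, whose probes may read shared sequence.

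The other replication-dependent genes were set beside these members. Of 45 further H2ac, H2bc, H3c and H4c genes on the array, 35 were tested. Probes within a family may read shared sequence, so the counts below are not of independent genes. The poly(A) limit given for H3c7 holds for them too. In KO, 30 rose in round spermatids, 1 fell and 4 did not pass (median 1.25), and in WT 20 rose, 1 fell and 14 did not pass (median 1.21), where 25.4% of all probes in KO and 27.6% in WT were higher. All 6 other H3c genes rose in both genotypes, with H3c1 at 1.85 in KO and 2.33 in WT, and H3c6 at 1.59 in KO and 2.06 in WT. Of 8 other H2bc genes, 6 rose in each genotype, such as H2bc11 (1.61 in KO, 1.45 in WT). Of the 11 other H2ac genes, all 11 rose in KO (median 0.98) and 3 rose in WT (median 0.21), or 6 of 11 in WT under cyclic loess. Of 10 H4c genes, 7 rose in KO and 5 in WT, and H4c2 fell in both (-1.81 in KO, -2.36 in WT). No H2ac gene passed for the difference between genotypes in the stage effect (range -0.01 to 1.30, the highest being H2ac24 with adjusted p = 0.0969, the smallest of the 11).

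**Figure D4:**
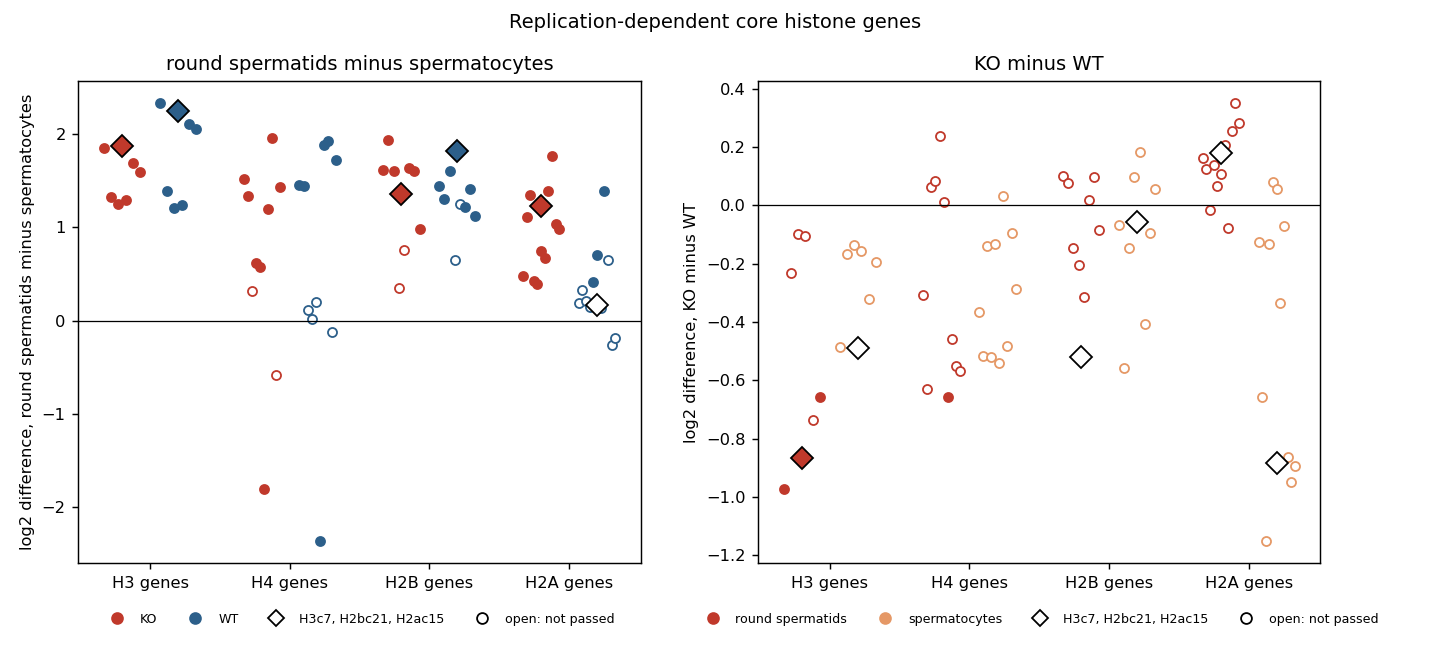
Log2 differences of replication-dependent core histone genes by family, each gene by its brightest tested probe: round spermatids minus spermatocytes in KO (red) and WT (blue) on the left, and KO minus WT in round spermatids (red) and spermatocytes (orange) on the right. Circles are other genes of the family, diamonds H3c7, H2bc21 (probe 1) and H2ac15, and filled symbols passed; the 11 other H2A genes are all filled in KO and 3 are filled in WT.

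Between genotypes in round spermatids, 3 of those 35 genes fell in KO and none rose (median -0.01), a share near the 7.32% of all probes that were lower. They were H3c1 (-0.97, SE 0.25, adjusted p = 0.0252), H3c6 (-0.66, SE 0.20, adjusted p = 0.047) and H4c3 (-0.66, SE 0.18, adjusted p = 0.0322), and all 3 kept their call under the 4 other scalings (cyclic loess, the submitters' processed values, no background correction, and normalization without the mixed arrays). These 4 scalings, counted here and below, are not 4 separate checks. Over all probes in this comparison, the processed values gave 2703 calls and no background correction gave 2694. Normalization without the mixed arrays gave 2336, beside 2350 in the main fit. The 6 other H3c genes had a median of -0.45, the 10 H4c genes -0.38, the 8 H2bc genes -0.03 and the 11 H2ac genes 0.14, beside 0.12 for all probes. In spermatocytes none of the 35 passed (median -0.17). Linker H1 genes had 4 tested members, of which H1f7, a spermatid-specific linker histone, rose with stage (1.51 in KO, 2.34 in WT) and none passed between genotypes.

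Among 5 other tested replication-independent histones, Macroh2a2, the paralogue of Macroh2a1, fell in round spermatids of both genotypes (-2.43 in KO, SE 0.23, adjusted p = 1.75e-05; -2.12 in WT, SE 0.23, adjusted p = 1.31e-05). H2ax, the variant phosphorylated at DNA breaks and on the sex body, fell in WT (-1.01, SE 0.26, adjusted p = 0.00514) and gave -0.57 in KO (adjusted p = 0.0901). None of the 5 passed between genotypes in either stage. Testis histone variants had 7 tested genes. With stage, 6 rose in each genotype (medians 1.19 in KO and 2.34 in WT), where 25.4% of all probes in KO and 27.6% in WT were higher. In round spermatids 5 fell in KO against WT (median -1.26), where 7.32% of all probes were lower. H2al2a had the smallest p (-1.83, SE 0.22, adjusted p = 1.29e-04) and H2ap the largest fall (-1.92, SE 0.26, adjusted p = 3.4e-04).

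Proteins that place these histones were read from lists, whose counts here and below stand beside these shares of all tested probes. With stage, 25.4% were higher and 24.8% lower in KO, and 27.6% higher and 32.5% lower in WT. Between genotypes in round spermatids, 6.19% were higher and 7.32% lower in KO. Counts near these shares show nothing particular to the genes listed. Of 5 tested H3.3 chaperone genes, 1 rose and 1 fell with stage in KO and 1 rose and 2 fell in WT: Dek rose (1.91 in KO, 1.49 in WT) and Asf1a, which passes H3-H4 on to other chaperones, fell (-1.26 in KO, -1.23 in WT). Hira, which deposits H3.3 outside replication, fell in WT round spermatids (95% interval -1.43 to -0.57, SE 0.20, adjusted p = 8.63e-04). It was higher in KO than in WT round spermatids (0.69, SE 0.20, adjusted p = 0.0371), a call kept under 1 of the 4 other scalings. Of 10 genes listed for replication-coupled H3-H4 chaperones and their partners, 1 passed between genotypes in round spermatids. It was Hat1 (0.73, SE 0.17, adjusted p = 0.0163 in limma), kept under 3 of 4 scalings, a histone acetyltransferase gene rather than a chaperone gene. With stage 2 rose and 4 fell in KO, and 5 fell in WT, among them Chaf1b, a subunit of the CAF-1 chaperone (-0.75 in KO, -1.11 in WT).

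Among 7 tested H2A-H2B chaperone genes, 3 fell with stage in KO and 5 in WT, with Nap1l4 at -1.40 in KO and -1.85 in WT and Nap1l1 at -1.30 in KO and -1.75 in WT. Ncl alone was higher in KO round spermatids (0.94, SE 0.24, adjusted p = 0.0234), a call kept under 1 of 4 scalings. Of 10 tested genes for H2A.Z exchange, 1 rose and 4 fell with stage in KO, where 24.8% of all probes fell. In WT 1 rose and 5 fell, where 32.5% of all probes fell. Ep400, the motor of an H2A.Z exchange complex, fell by 1.41 on the log2 scale in KO and fell by 1.65 in WT. Its partner gene Dmap1 was higher in KO round spermatids (0.58, SE 0.17, adjusted p = 0.0444; kept under 3 of 4 scalings).

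For CENP-A loading and the centromere, 14 genes were tested. With stage 2 rose and 4 fell in KO (25.4% and 24.8% of all probes), and 2 rose and 7 fell in WT (27.6% and 32.5%). Mis18a, needed in mammalian cells to license new CENP-A, fell (-1.11 in KO, -1.97 in WT), as did Cenpt (-1.16 in KO, -1.51 in WT), while Cenpi rose (1.64 in KO, 1.46 in WT). None of the 14 passed between genotypes, where Cenpa itself was at 0.82 in round spermatids (median of the list 0.21). The 9 tested genes of histone mRNA processing gave 2 higher and 1 lower in KO round spermatids, beside 6.19% and 7.32% of all probes. Those that passed were Cstf2 (1.04, SE 0.30, adjusted p = 0.038), Mif4gd (0.53, SE 0.15, adjusted p = 0.0365) and Sympk, a scaffold of the cleavage machinery (-1.09, SE 0.28, adjusted p = 0.0251). Sympk kept its call under all 4 other scalings, and the others under 3.

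Lists of DNA replication genes and of other cells' markers were read beside these values. Of 18 DNA replication genes tested, 5 were higher in KO than in WT round spermatids and none lower (median 0.68). Over all probes 6.19% were higher. Among the 5 were Ccne1 (1.55, SE 0.23, adjusted p = 8.59e-04) and Mcm5 (1.12, SE 0.26, adjusted p = 0.0155). Both were kept under the 4 other scalings, although cyclic loess left 2 of the 5 calls. The mean log2 signal of the 18 genes ran from 8.67 to 8.82 in KO round spermatids against 8.01 to 8.33 in WT ones, without overlap. In spermatocytes it ran from 8.23 to 8.84 in KO and from 8.55 to 8.80 in WT. Macrophage markers (8.22, 6.83 and 7.78 in KO; 7.00, 6.35 and 7.18 in WT) and spermatogonial markers (8.24, 8.27 and 8.53 in KO; 8.27, 7.67 and 8.11 in WT) overlapped between genotypes in round spermatids. By gene, 1 of 12 macrophage markers was higher in KO round spermatids (H2-Aa, 1.16, adjusted p = 0.00589) and the list's median was 0.82; 1 of 8 spermatogonial markers was higher (Elavl2, 1.01, adjusted p = 0.0404) with a median of 0.33. Of 9 tested Sertoli markers, 2 were lower in KO round spermatids and none higher (median 0.12). These were Cst12 (-1.22, adjusted p = 0.017 in limma) and Cst9 (-1.38, adjusted p = 0.0172). The part of these lists in the Cenpa, H3f3b and H3c7 values was not tested. The 3 erythroid markers averaged 7.66 to 8.81 in KO and 8.88 to 9.94 in WT round spermatids, without overlap, but none of the 3 passed (median -1.05, adjusted p 0.0591 to 0.066), and their part was not tested either.

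The mixed arrays bear on some of these values. In KO spermatocytes the 3 mixtures read below all 3 direct arrays for Cenpa (8.89 to 9.16 against 9.51 to 9.83), H2az1 (12.37 to 12.72 against 13.14 to 13.50) and H2az2 (7.64 to 7.97 against 8.59 to 9.01). They read above them for H2bc21 probe 2 (9.24 to 9.71 against 7.22 to 8.70). Over all 11 probes, 27 of 33 mixed values in KO spermatocytes lay outside their 2 sources, beside 77.3% of values over all tested probes. The counts were 20 of 33 for KO round spermatids (68.7% over all probes), 19 for WT round spermatids (64.2%) and 26 for WT spermatocytes (59.6%). With all 6 arrays treated as replicates, which they are not, 4 member probes passed between genotypes in round spermatids and 5 in spermatocytes.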

How the data were processed

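Total RNA from enriched fractions was amplified to biotinylated cRNA and hybridised to Illumina bead arrays, per the labels' protocols. The deposited table gives an intensity and a detection p-value for each probe and array, not normalized; whether the authors subtracted background is not given in the sources used here. The authors' processed intensity values, used as an alternative, have column medians of 140.2 to 140.4. Medians of that size are those of linear, uncentred intensities and not of log2 values. The processed values rank probes as the raw columns do (Spearman's rho of 1 on all 24 arrays), which holds after any change that keeps order. The steps behind them are not given. Between genotypes in round spermatids they gave 2703 calls over all probes, close to the 2694 with no background correction.

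Intensities were background-corrected from the detection p-values, offset by 16, quantile-normalized over all 24 arrays and taken to log2 (neqc, limma 3.58.1, R 4.3.3). A probe was tested if 3 or more of the 12 direct arrays gave it a detection p under 0.01 (17401 of 45281). All 4 groups entered 1 fit (lmFit, eBayes; 8 residual degrees of freedom), with Benjamini-Hochberg adjustment over all tested probes. A gene with several probes was read, in lists, by its brightest. The fit was tested on simulated data with independent noise around a mean for each probe. That simulation held no fractionation or cell-mixture effects and cannot speak to them. Fold changes are 2 to the power of the log2 difference. The p-values measure the spread between 3 fractionations a group, and the number of mice pooled differs by genotype, so pool size and genotype cannot be told apart.

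Platform annotation named 1 gene for 34885 probes, several for 18 and none for 10378, and 34807 of those with 1 gene matched RefSeq. The members and gene lists were chosen with earlier results of these data known. From each list the text counts all tested genes and names, from among up to 4 that passed with the smallest p in a comparison, those shown; H3f3a and H2ac24 lie outside that rule and were chosen after their values were seen. Within a genotype, stages with the same replicate number come from the same fractionation, per the labels. Same-numbered deviations from group means correlated at 0.05 to 0.41 in KO and -0.19 to 0.24 in WT. Alternatives tried were the scaling, background, detection filter, probe choice, blocks, array weights, the arrays used and leaving out each replicate; normalization without the mixed arrays was chosen after seeing the data.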

Additional observations from a re-analysis of the deposited data

How the results depend on the processing

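Over 1289 comparisons of a histone probe with an alternative, 1243 kept direction and call, 15 lost a call, 31 gained one and none reversed. In round spermatids between genotypes, the 1 histone call became 2 under cyclic loess, 0 with no detection filter and 4 with all 6 arrays (which counts mixtures as samples). It became 4 with array weights, 3 with only the groups compared and 0 to 3 without single replicates. Macroh2a1 probe 3, detected on no direct round spermatid array, is among the calls with only the groups compared (adjusted p = 0.0429 in limma). It is also counted without KO spermatocyte replicate 1 (0.0444), so these are calls between undetected values. All-probe calls between genotypes in round spermatids, 2350, became 1558 among probes detected on all 12 arrays and 6341 with all 6 arrays. They became 4660 with array weights and 1218 to 3066 without single replicates. In spermatocytes the 0 histone calls became 5 with all 6 arrays and 0 to 1 without single replicates. The 140 all-probe calls became 62 with the processed values (23 higher, 39 lower, against 32 and 108), 62 with no background correction (23 and 39), 93 with no filter, 54 among probes on all 12 arrays, 4591 with all 6 arrays, 57 with only the groups compared and 78 to 142 without single replicates. For the difference between stages in the genotype effect, the 0 histone calls became 1 with the processed values, 1 with no background correction, 3 with all 6 arrays, 2 with array weights and 0 to 1 without single replicates. Its 264 all-probe calls (30 higher, 234 lower) became 224 under cyclic loess (5 and 219), 444 with the processed values (89 and 355), 445 with no background correction (89 and 356), 47 on all 12 arrays, 2805 with all 6 arrays, 1494 with array weights and 121 to 664 without single replicates. The 8 stage calls in WT, which count Macroh2a1 probe 3 although it was detected in spermatocytes only, became 5 with one probe per gene and 7 to 9 without single replicates (8991 to 11052 over all probes), and the 9 in KO stayed 9 without any single replicate (7123 to 9048 over all probes). The causes were not tested.

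With the replicate number as a replicate block between genotypes, where same-numbered KO and WT arrays share no animals or fractionation, the H3c7 call in round spermatids was lost (adjusted p = 0.0521), leaving 0. With fractionation, which does join the stages of a genotype, as a random replicate block, 1 probe, Cenpa, passed for the difference between stages. Neither block changed another histone call. Dim signal limits the Macroh2a1 probe 3 and H2bc21 probe 2 values and leaves the 4 undetected probes without a level.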
